A study of Mus musculus with 2 samples.

Results

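The interleukin 1 (IL-1) family and its receptors were described here in regenerating muscle of mice labelled as lacking the transcription factor MEF2A and of wild type mice. The members were chosen by name as ligands (Il1a, Il1b, Il18 and Il33), the receptor antagonist Il1rn, receptors (Il1r1, Il1rap, Il1rl1 and the decoy Il1r2) and the processing protease Casp1, with the probe set of highest mean standing for each gene. Of these 10 genes, 8 were matched to a probe set, out of 19938 genes in the whole table. Il1r1, the signalling receptor of interleukin 1, and Il1rl1, the receptor of IL-33 also called ST2, had no probe set named in the annotation used here and were not analysed. Each of the 8 measured members had exactly 1 probe set, so the choice by highest mean did not decide any value.

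The labelled knockout group was Mef2a -/- (Mef2a KO) and its control was Mef2a +/+ (wild type), both of mixed 129Sv/C57BL6 background, 2 to 4 months old and of both sexes. The right tibialis anterior muscle of both groups had been injected with 50 µl of 10 µM cardiotoxin, a toxin of snake venom that kills fibres but spares the stem cells that rebuild them, and was taken on day 7. RNA of 5 mice per genotype was pooled in equal amounts and hybridised to 1 array per pool, so each value below is a single measurement of a pool, with no replicate error and no test. Values are log2 RMA values, and every difference is the value of the labelled knockout pool minus that of the wild type pool. Which part of the Mef2a gene is missing in these mice is not stated in the labels.

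Interleukin 1 alpha and beta are inflammatory cytokines that bind the receptor IL1R1, which then recruits the accessory chain encoded by Il1rap and signals through MYD88 and NF-kB. IL1RN occupies the same receptor without recruiting the accessory chain, and IL1R2 binds the ligand but has no signalling domain, so both damp the response. IL-33 signals through ST2 and the same accessory chain, and IL-18 has a receptor pair of its own. Caspase 1, activated in inflammasomes, cuts the precursors of interleukin 1 beta and IL-18 into their active forms. In injured muscle these cytokines are made by infiltrating myeloid cells and, in the case of IL-33, by stromal cells.

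The arrays as a whole set the scale for these genes. After sorting, the values of the arrays differed by at most 0.139, so a change shared by most genes cannot be seen. A gene was counted as measurable when its higher value reached 4.39, the median of all values in the table, which 11787 genes did. This floor is arbitrary, and no detection calls were used. As a second mark of background, 95% of 1015 olfactory receptor genes, which muscle is not known to need, lay below 3.40 in the labelled knockout pool and below 3.63 in the wild type pool. The Mef2a probe set read 9.06 in the labelled knockout pool and 8.92 in the wild type pool. It was thus not lower, and since a probe set outside the deleted part checks nothing, every direction below rests on the labels.

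The promoters of the family are shown because its measured members mostly differed in the same direction. RefSeq (GRCm38.p6) lists 15 promoter windows for all 10 members. The 250 bases before each start were searched on both strands for 4 short motifs, which are GGGA and CC parted by any 4 bases for NF-kB, TGANTCA for AP-1, GAGGAA for the myeloid factor PU.1 and CTAAAAATA for MEF2. Capitals mark each match. The 4 windows that hold a match are printed, 5′ to 3′ on the strand of the gene, together with the second Il1rn start, which lies 8431 bases downstream of the first.
Il1rn, first start (chr2:24336610-24336859, plus strand): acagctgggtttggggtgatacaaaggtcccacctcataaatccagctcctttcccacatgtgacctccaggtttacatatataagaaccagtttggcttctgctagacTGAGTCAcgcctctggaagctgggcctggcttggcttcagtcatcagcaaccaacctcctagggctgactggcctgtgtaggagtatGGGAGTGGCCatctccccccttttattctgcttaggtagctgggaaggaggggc
Il1rn, second start (chr2:24345041-24345290, plus strand): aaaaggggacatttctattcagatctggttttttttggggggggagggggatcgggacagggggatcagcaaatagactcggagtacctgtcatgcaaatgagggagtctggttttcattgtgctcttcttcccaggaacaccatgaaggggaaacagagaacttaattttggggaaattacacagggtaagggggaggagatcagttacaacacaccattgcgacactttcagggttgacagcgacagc
Il1rap (chr16:26581455-26581704, plus strand): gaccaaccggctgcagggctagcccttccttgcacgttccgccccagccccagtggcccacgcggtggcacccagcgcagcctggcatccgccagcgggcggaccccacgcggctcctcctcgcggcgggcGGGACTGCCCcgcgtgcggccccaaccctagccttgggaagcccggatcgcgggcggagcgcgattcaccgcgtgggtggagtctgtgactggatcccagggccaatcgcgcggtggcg
Il1a (chr2:129309973-129310222, minus strand): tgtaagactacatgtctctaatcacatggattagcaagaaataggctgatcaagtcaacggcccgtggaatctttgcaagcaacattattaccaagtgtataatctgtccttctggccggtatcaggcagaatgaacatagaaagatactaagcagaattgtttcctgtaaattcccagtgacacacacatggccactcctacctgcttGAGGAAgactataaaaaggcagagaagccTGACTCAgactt
Casp1 (chr9:5298267-5298516, plus strand): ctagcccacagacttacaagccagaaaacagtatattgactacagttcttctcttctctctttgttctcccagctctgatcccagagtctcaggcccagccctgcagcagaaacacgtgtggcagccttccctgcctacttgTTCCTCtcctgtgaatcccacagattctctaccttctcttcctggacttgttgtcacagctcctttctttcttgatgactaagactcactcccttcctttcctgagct
The first Il1rn window holds the NF-kB letters 54 to 45 bases before the start and the AP-1 letters 141 to 135 bases before it. Il1rap has the NF-kB letters 119 to 110 bases before its start. Il1a has the AP-1 letters 12 to 6 bases and the PU.1 letters 41 to 36 bases before its start, and Casp1 has the PU.1 letters on the opposite strand 108 to 103 bases before its start. No match overlaps another. NF-kB letters thus occur in 2 of the 15 windows (13.3%), against 17.6% of all 32851 windows in the table. AP-1 letters occur in 2 of the family's windows (13.3%) against 6.75% of all, and PU.1 letters in 2 (13.3%) against 23.3%. The MEF2 letters occur in none of the 15, against 0.469% of all windows. A match is a run of letters and not a shown binding site.

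Il1rn, which encodes the interleukin 1 receptor antagonist, had the largest difference of the 8 measured members. It read 6.95 in the labelled knockout pool and 4.71 in the wild type pool, a difference of 2.23 or 4.71-fold. The knockout value lay well above the floor and the wild type value just over it. By its difference Il1rn ranked 10 from the top among 11787 measurable genes. The robust SD of the difference over those genes, taken from the median absolute deviation, was 0.28, and the Il1rn difference was 7.93 times that. This is a spread between genes and not an error of Il1rn, which 1 array per pool cannot give. Because the members were proposed with results of these arrays known, the rank and this multiple are a description only. In the same RNA the macrophage markers described further on had a median difference of 0.97. In bulk tissue more cells of a type and more RNA per cell cannot be told apart. Il1rn had a single probe set, so its secreted and intracellular forms cannot be told apart either.

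Across the family, 7 of 8 measured members were higher and 1 was lower in the labelled knockout pool, with a median difference of 0.48 and a mean of 0.61, against a median of -0.03 over all 19938 genes. Of all genes 41.3% were higher by any amount, and of the measurable genes 53.3%. Only 3 members were at the floor (Il1rn, Il33 and Il1rap), and 2 of these were at least 1.5-fold higher, while 6.45% of measurable genes were. None of the 3 was 1.5-fold lower, against 1.90% of measurable genes. At 2-fold the count was 1 higher, Il1rn, against 1.70% of measurable genes, and 0 lower, against 0.187%. The members were proposed with results of these arrays known, so these counts are a description and no support for a direction. Il1rap, at 4.91 in the labelled knockout pool, was the member just inside the floor, and Casp1, at 4.37 in that pool, the one just outside.

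**Figure D1:**
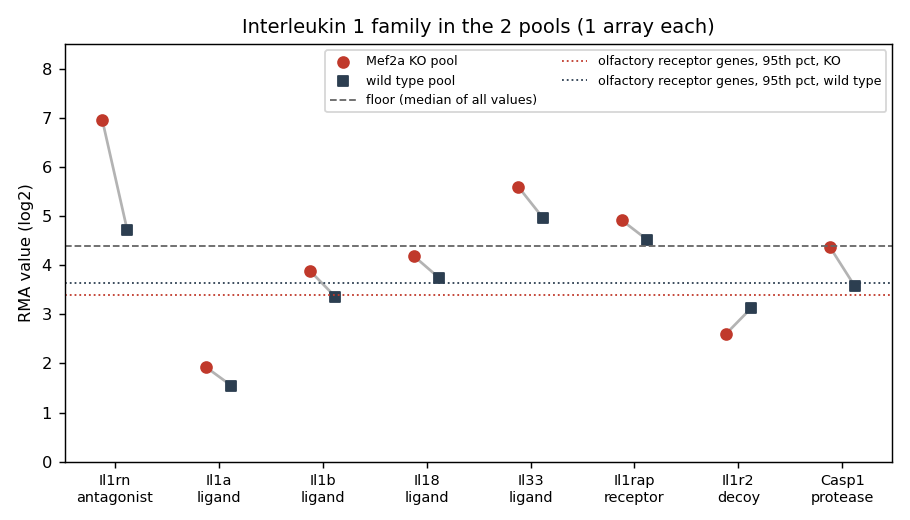
Log2 RMA values (y axis) of the 8 measured members (x axis) in the labelled Mef2a KO pool (red circles) and the wild type pool (dark squares), 1 array each. The dashed line is the floor of 4.39, and dotted lines are the 95th percentiles of olfactory receptor genes (3.40 and 3.63). Il1rn shows the widest gap, and Il1r2 is the member that is lower in the labelled knockout pool.

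The ligands for the interleukin 1 receptor read low in both pools. Il1b, the main inflammatory ligand of macrophages, read 3.88 in the labelled knockout pool and 3.36 in the wild type pool, a difference of 0.52. Il1a, an alarm signal released by dying cells, read 1.92 in the labelled knockout pool and 1.55 in the wild type pool, a difference of 0.37. Both stayed below the floor, and Il1a was below the olfactory 95th percentile of each array. Il1b was above that mark in the labelled knockout pool and below it in the wild type pool. The difference of Il1rn exceeded that of Il1b by 1.71 and that of Il1a by 1.87 on the log2 scale. RMA values near background understate true differences, so these gaps are not ratios of antagonist to ligand.

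The other ligands also differed upward. Il33, an alarm cytokine held in the nuclei of stromal and endothelial cells, read 5.60 in the labelled knockout pool and 4.96 in the wild type pool, a difference of 0.65 or 1.56-fold. It was above the floor in both pools and ranked 610 among the measurable genes. Il18, a caspase 1 substrate that drives interferon gamma production, read 4.18 in the labelled knockout pool and 3.74 in the wild type pool, a difference of 0.44. Il18 stayed below the floor but above the olfactory mark in both.

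The 2 measured receptor genes differed in opposite directions. Il1rap, the accessory chain shared by the receptors of IL-1, IL-33 and IL-36, read 4.91 in the labelled knockout pool and 4.52 in the wild type pool, a difference of 0.39. Il1r2, the decoy receptor, read 2.60 in the labelled knockout pool and 3.12 in the wild type pool, a difference of -0.51. Neither reached 1.5-fold, and Il1r2 lay below the olfactory mark on both arrays. The 2 genes that limit interleukin 1 signalling thus had differences of opposite sign, 2.23 for Il1rn and -0.51 for Il1r2, the second at a level close to background. Of the 8151 genes below the floor, 64.8% were lower by any amount and 23.8% were higher. Casp1, Il1b, Il18 and Il1a were thus higher in a range where most genes were lower.

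**Figure D2:**
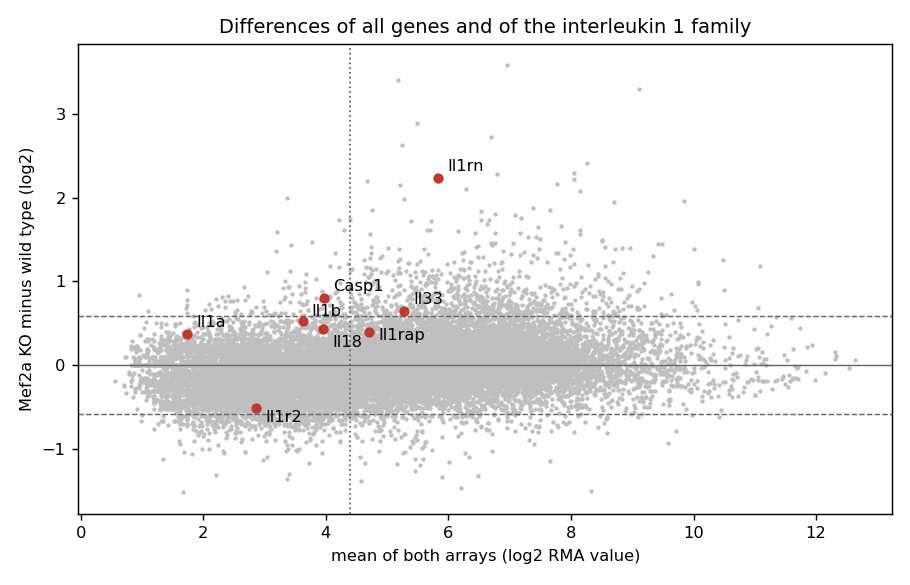
Difference between the labelled Mef2a KO pool and the wild type pool (y axis, log2) against the mean of both arrays (x axis, log2 RMA value) for 19938 genes (grey) and the 8 measured members (red). Dashed lines mark 1.5-fold and the dotted line the floor of 4.39. Il1rn stands apart from the cloud at 2.23, Casp1 and Il33 lie just past 1.5-fold, and Il1r2 is at -0.51.

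The remaining genes of the family and its receptors were mostly below the floor. Of 12 such genes, 3 were at the floor and none of these was past 1.5-fold in either direction. The shares of measurable genes were 6.45% higher and 1.90% lower, so none among 3 genes is near those shares. The median difference was 0.00 over all 12, against -0.03 over all genes. Il1rl2, the receptor of IL-36, read 5.39 in the labelled knockout pool and 4.89 in the wild type pool (difference 0.50). Il18bp, a secreted protein that neutralises IL-18, read 5.38 in the labelled knockout pool and 5.29 in the wild type pool. Sigirr, an inhibitory receptor of the family, read 4.86 in the labelled knockout pool and 4.90 in the wild type pool. The difference of Il1rn was thus not seen in Il18bp (0.09) or Sigirr (-0.03), the other inhibitors at the floor. The IL-36 genes Il1f6, Il1f8 and Il1f9, their antagonist Il1f5, and Il1f10 lay between 1.56 and 3.03 in the labelled knockout pool and between 1.66 and 3.03 in the wild type pool, all below the floor, with Il1f9 the 1 past 1.5-fold (difference -0.63). The IL-18 receptor chains Il18r1 (difference -0.32) and Il18rap (0.26) were below it as well.

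Casp1, which activates interleukin 1 beta and IL-18, had the second largest difference of the family. It read 4.37 in the labelled knockout pool and 3.57 in the wild type pool, a difference of 0.80 or 1.74-fold. Both values were below the floor, and only the labelled knockout value passed the olfactory mark of its array. Of the 8151 genes under the floor, 1.07% were 1.5-fold or more higher and 4.83% were 1.5-fold or more lower. Its chromosomal neighbours and relatives Casp4 (difference 0.09) and Casp12 (0.20) were within 1.5-fold.

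Genes of the inflammasome and related caspases were mostly higher by small amounts. Of 18 measured genes 10 were at the floor, and 9 of these were higher, against 53.3% of measurable genes. Aim2 reached the floor only in the labelled knockout pool, so both counts follow in part from the floor. At least 1.5-fold higher were 3 of the 10 and none was 1.5-fold lower, against 6.45% and 1.90% of measurable genes. The median difference of the 10 was 0.42, against 0.026 over all measurable genes. Casp8, an initiator caspase of cell death that can also process interleukin 1 beta, read 6.99 in the labelled knockout pool and 6.30 in the wild type pool (difference 0.69). P2rx7, the ATP-gated channel that triggers the NLRP3 inflammasome, read 6.26 in the labelled knockout pool and 5.63 in the wild type pool (0.64). Ninj1, which ruptures the membrane of dying cells, differed by 0.59, or by 0.53 and under 1.5-fold once a loess trend on mean expression was removed. Aim2, a sensor of cytosolic DNA, read 4.47 in the labelled knockout pool and 3.97 in the wild type pool. Its difference was 0.49, or 0.60 and past 1.5-fold without that trend. Naip2, a sensor of bacterial proteins, differed by 0.47, and Pycard, the adaptor that links sensors to caspase 1, by 0.37. Nlrp3 itself read 3.69 in the labelled knockout pool and 3.55 in the wild type pool, below the floor. It and the next gene were named after their values were seen. Nlrc4, the sensor that works with NAIP proteins, read 3.13 in the labelled knockout pool and 2.20 in the wild type pool, also below the floor.

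Other proteases that cut these cytokines or shed their receptors went both ways. Of 8 at the floor, 5 were higher and 3 lower, while 53.3% of measurable genes were higher. At least 1.5-fold higher were 2 of the 8 and none was 1.5-fold lower, against 6.45% and 1.90% of measurable genes. Mmp9, a gelatinase of inflammatory cells, read 8.75 in the labelled knockout pool and 5.16 in the wild type pool, a difference of 3.58 that was larger than that of any member. Adam17, a sheddase of membrane proteins, differed by 0.63, or by 0.58 and under 1.5-fold with the loess trend removed, and the sheddase Adam10 by 0.33. The neutrophil proteases Elane (-0.16), Prtn3 (-0.13) and Ctsg (-0.54), which activate interleukin 1 family precursors outside the cell, were below the floor in both pools and were named after their values were seen.

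Genes of the signalling chain behind the receptor differed by small amounts. All 17 measured genes were at the floor, 11 were higher and 6 lower, while 53.3% of measurable genes were higher. The median difference of the 17 was 0.13, against 0.026 over all measurable genes. At least 1.5-fold higher was 1 and none was 1.5-fold lower, against 6.45% and 1.90% of measurable genes. The 1 gene was Irak3, a kinase relative made by macrophages that restrains MYD88 signalling. It read 6.27 in the labelled knockout pool and 5.65 in the wild type pool, a difference of 0.62, or 0.58 and under 1.5-fold with the loess trend removed. Myd88, the adaptor, differed by 0.54. The kinase Irak2 differed by 0.43, the ubiquitin ligase Peli1 by 0.40, the kinase Irak1 by 0.36 and Ikbkb, which releases NF-kB, by 0.34. The largest differences in this list thus belonged both to genes that pass the signal on and to 1 that restrains it.

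Of 30 measured genes that interleukin 1 can induce through NF-kB, 21 were higher in the labelled knockout pool, against 41.3% of all genes. At the floor were 23, of which 18 were higher and 5 lower, while 53.3% of measurable genes were higher. At least 1.5-fold higher were 8 of the 23 and none was 1.5-fold lower, against 6.45% and 1.90% of measurable genes. The median difference was 0.41 over the 23 and 0.33 over all 30. Of those 8, Saa3, Ccl2 and Tnf reached the floor only in the labelled knockout pool, so their counts follow in part from the floor. Csf3 and Sele reached it only in the wild type pool. Saa3, an acute phase protein, read 5.76 in the labelled knockout pool and 3.57 in the wild type pool, a difference of 2.20. Ccl7 (1.01) and Ccl2 (0.85), chemokines that draw monocytes, Lcn2 (0.94), which binds bacterial iron carriers, and Tnfaip3 (0.82), a brake on NF-kB, followed. Tnf, an inflammatory cytokine, read 4.43 in the labelled knockout pool and 3.71 in the wild type pool. Other members of the list did not follow. Cxcl1, a neutrophil chemokine, read 4.87 in the labelled knockout pool and 5.20 in the wild type pool, and Sele, an endothelial adhesion molecule, read 4.15 in the labelled knockout pool and 4.61 in the wild type pool. The matrix protease Mmp13 differed by -0.21. Csf3, Cxcl1, Sele and Mmp13 were named after their values were seen. Many genes of this list also answer to other signals, and the part of interleukin 1 in their differences was not tested.

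**Figure D3:**
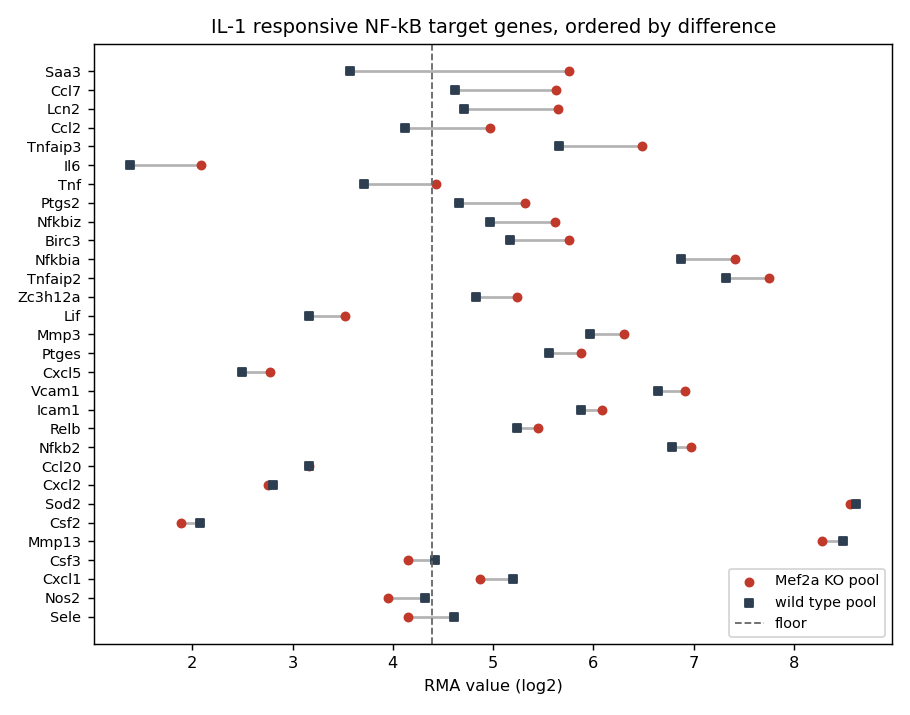
Log2 RMA values (x axis) of 30 genes that interleukin 1 can induce through NF-kB (rows, largest difference on top) in the labelled Mef2a KO pool (red circles) and the wild type pool (dark squares), 1 array each. The dashed line is the floor of 4.39. Saa3 is highest in difference at 2.20, while Cxcl1 and Sele are lower in the labelled knockout pool.

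Markers of the cells that make these cytokines differed in the same RNA. Of 20 macrophage and monocyte markers 19 were measured, running from 3.71 to 11.67 in the labelled knockout pool and from 3.83 to 10.49 in the wild type pool. At the floor were 18, of which 16 were at least 1.5-fold higher and none 1.5-fold lower, against 6.45% and 1.90% of measurable genes. The median difference was 0.97 over the 19. Msr1, a scavenger receptor, differed by 2.11, Gpnmb, of lipid-laden macrophages, by 1.96 and the integrin chain Itgam by 1.80, although Itgam differed by 0.11 when probe sets with several gene symbols were allowed. The difference of Il1rn, 2.23, was larger than those of all 19 markers, and the differences of Casp1, Il33, Il1b, Il18, Il1rap and Il1a were below their median. Casp1, Il1b, Il18 and Il1a lay below the floor, unlike 18 of the 19 markers. RMA values near background understate differences, so those 4 genes and the markers are not on an equal scale. The part of macrophage content in the differences of the family was not tested.

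Markers of other possible sources were mostly below the floor. Of 12 neutrophil markers 11 were below the floor in both pools, with a median difference of 0.27. Higher by any amount were 10 of the 12, against 41.3% of all genes and 23.8% of genes below the floor. S100a8 read 3.80 in the labelled knockout pool and 3.26 in the wild type pool, and Ly6g read 1.96 in the labelled knockout pool and 1.87 in the wild type pool, both named after their values were seen. Csf3r, the receptor of a neutrophil growth factor, was the 1 marker at the floor and differed by 0.38. Of 13 mast cell, basophil and eosinophil markers, among the cells that carry ST2, 3 were at the floor. None of these was past 1.5-fold, against 6.45% of measurable genes higher and 1.90% lower. Mcpt4 differed by -0.33, Kit by 0.22 and Tpsb2 by -0.10. Of 12 measured markers of T cells, regulatory T cells and innate lymphoid cells, 3 were higher, with a median difference of -0.15. The share higher was 41.3% over all genes and 23.8% over genes below the floor, where 9 of the 12 lay. At the floor were 3 of the 12, Il7r, Rora and Ikzf2. Il7r, a cytokine receptor chain, read 7.53 in the labelled knockout pool and 5.80 in the wild type pool (difference 1.73). Rora read 6.47 in the labelled knockout pool and 6.71 in the wild type pool (difference -0.24), and Ikzf2 differed by -0.12. Foxp3, the defining gene of regulatory T cells, read 3.47 on both arrays, below the olfactory mark of the wild type array and above that of the other, and Cd3e read 4.10 in the labelled knockout pool and 4.29 in the wild type pool. Those 2 genes were also named after their values were seen.

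Stromal cells are a known source of IL-33. Of 12 fibro-adipogenic and fibroblast markers at the floor, 2 were at least 1.5-fold higher and none 1.5-fold lower. The shares of measurable genes were 6.45% and 1.90%. The median difference was 0.10 over the 12. Has2, a hyaluronan synthase, differed by 1.06, the chemokine Cxcl14 by 0.80 and Cd34 by -0.24, while Il33 differed by 0.65. Of 11 endothelial markers 1 was 1.5-fold higher, Vwf at 0.84, with a median of -0.07, Kdr at -0.29 and Emcn at 0.23. The part of stromal content in the Il33 difference was not tested. All 15 muscle fibre genes were at the floor and lower, while 53.3% of measurable genes were higher. The median of the 15 was -0.18, with 1 past 1.5-fold, the fast myosin Myh2 at -0.62, followed by Mb (-0.53) and Ryr1 (-0.31). Their levels of 8.78 to 12.52 in the labelled knockout pool and 9.40 to 12.56 in the wild type pool show that the labelled tissue's own genes were strongly measured. Of 10 myogenic cell markers 1 was 1.5-fold lower, the neonatal myosin Myh8 at -0.63, beside Myh3 at -0.44 and Mymk, which drives fusion, at 0.24.

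**Figure D4:**
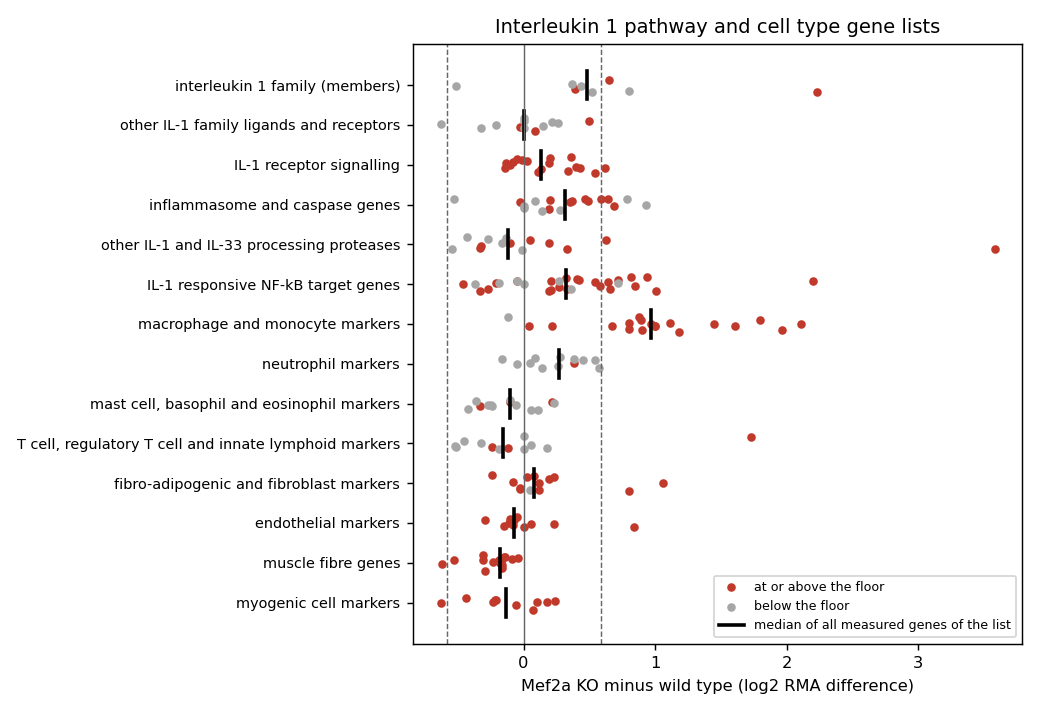
Difference between the labelled Mef2a KO pool and the wild type pool (x axis, log2) for each measured gene (points) of 14 lists (rows). Red points are genes at or above the floor, grey points lie below it, black bars are medians and dashed lines mark 1.5-fold. The family's median of 0.48 lies between those of the inflammasome list (0.31) and the macrophage list (0.97).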

How the data were processed

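Total RNA of 5 mice per genotype was pooled and measured on 1 array per pool, with biotin-labelled target per the labels' protocols. The deposited log2 values were made by the authors with RMA, run in the Affymetrix program Expression Console according to the submitters' processing notes. No version or setting is given in the sources used here. RMA corrects background, equalises the distributions of arrays and joins the probes of each set into 1 value, so values near background are compressed. The number of arrays, 2, limits the precision.

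Of 35557 probe sets, 21789 carried 1 gene symbol, 1621 several and 12147 none. The probe set of highest mean stood for a gene. For 21698 of the single-symbol probe sets the gene identifier matched RefSeq, no symbol needed an update, and list names were matched through RefSeq synonyms. Differences, counts past 1.5-fold and 2-fold and list medians were computed with Python 3.11.15, pandas 2.3.3 and numpy 2.4.6, and the loess curve (span 0.3) with statsmodels 0.14.6. Counting was tested on simulated data. Promoter motifs were searched in the RefSeq table.

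The members and lists were chosen with earlier results of these data known. Named are all members, up to 6 genes at the floor with the largest differences in each pathway list (3 for proteases and cell markers), and others said to be named after their values were seen. With 1 array per group no test was possible. Alternatives were centred differences, removal of the loess trend, other rules for probe sets and other floors.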

Additional observations from a re-analysis of the deposited data

How the results depend on the processing

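The 8 alternatives turned no called difference round, but the other floors could not change the difference of a single gene. Each member kept its direction and differed by less than 0.28, the robust SD, from the value given, whether differences were centred, freed of the loess trend or taken with other probe set rules. The family has 1 probe set per gene and none shared with other symbols, so those rules could not move it. Centring moved every difference by the same amount, so only removal of the loess trend could change the members unequally. With the loess trend removed Il1b differed by 0.67 and passed 1.5-fold, though below the floor, and the family's median was 0.61. The counts depended on the floor. With it at the 25th percentile of all values (2.78), 7 members reached it and 3 were at least 1.5-fold higher, against 5.03% of genes at that floor. At the 75th percentile (6.18), 1 member reached it, Il1rn, so 1 was past 1.5-fold, against 8.4% of genes, and 1 of the genes induced through NF-kB was. With no floor, 3 members and 5 inflammasome genes were 1.5-fold higher, against 4.25% of all genes. No paired analysis was possible because each genotype has 1 array. No detection calls or probe-level values were used, so the members near background are poorly bounded.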

Other observations

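The interleukin 1 genes lie in clusters, and the genes beside them on the chromosome were also read. For each measured member the 3 nearest measured protein-coding genes on either side were taken by RefSeq order, a choice made after the data were seen. These were 42 genes, of which 17 were at the floor. At least 1.5-fold higher were 3 of the 17 and none was 1.5-fold lower, against 6.45% and 1.90% of measurable genes, with a median of 0.20.

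The 3 were Slc20a1, a phosphate transporter near Il1a and Il1b, Sirpa, a myeloid inhibitory receptor on the other side of that pair, and Psd4, next to Il1rn on chromosome 2. Slc20a1 read 8.25 in the labelled knockout pool and 6.75 in the wild type pool, which is 2.83-fold higher. Sirpa read 9.41 in the labelled knockout pool and 8.30 in the wild type pool, a difference of 1.10. Psd4 read 5.28 in the labelled knockout pool and 4.68 in the wild type pool, a difference of 0.60. Il1f10, the neighbour of Il1rn on its other side, read 2.53 on both arrays. Slc20a1 and Sirpa thus differed by more than Il1a (0.37) or Il1b (0.52), while Ckap2l, a spindle gene between Slc20a1 and Il1a, differed by -0.05.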
